A study of Macaca fascicularis with 6 samples.

Results

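The genes described here make up the switch that turns cyclin-dependent kinase 1 (CDK1) on and off in the cynomolgus monkey oocyte (Macaca fascicularis). They were chosen by name from the deposited gene table and are 10 of its 28164 genes: the kinase CDK1, the cyclins CCNB1, CCNB2, CCNB3 and CCNA2, the inhibitory kinases WEE2, WEE1 and PKMYT1, and the activating phosphatases CDC25B and CDC25C. RNA was sequenced from 3 groups of oocytes with 2 libraries each. GV oocytes are immature and still hold their large nucleus, called the germinal vesicle. The IVM MII oocytes were brought to metaphase II, the stage of arrest before fertilisation, by maturation in vitro, and the IVO MII oocytes reached it in vivo. All 3 groups were wild type, were labelled as not treated, and had been stripped, that is, freed of the cells around them. Not given in the sources used here are the age of the animals and how many oocytes and animals each library pools. The p-values below therefore measure the spread between these libraries, which may be technical.

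CDK1 bound to a B-type cyclin is the kinase activity that drives a cell into M phase, known in oocytes as maturation-promoting factor. WEE1 and its oocyte relative WEE2 (WEE1B), together with the membrane-bound kinase PKMYT1 (MYT1), hold the complex inactive by phosphorylating CDK1, and CDC25 phosphatases remove those phosphates. A GV oocyte rests in prophase with this complex held off, resumes meiosis when the balance tips, and is held again at metaphase of the second division with the complex on. Most of this control acts on proteins, while the oocyte makes little or no new RNA during maturation and works from stored mRNA.

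Each library held 27707021 to 35515139 counts over genes, and 15815 genes had enough counts to be tested. Levels are CPM, the counts scaled to library size with the TMM factors of edgeR, and means are given ± SD with n = 2 libraries. A value after ± on a log2 fold change is its standard error. It was derived as the size of the log2 fold change over the square root of the F statistic of the edgeR test. With 2 libraries against 2, the smallest exact two-sided permutation p is 0.333, so groups that do not overlap are a description only. Reverse transcription started from the poly(A) tail, so a change in the amount of an mRNA, in the length of its tail or in the total RNA it is scaled to cannot be told apart, nor can fewer oocytes and less RNA per oocyte. The 11 oocyte markers were all tested and summed to 42440 and 47520 CPM in GV, above the 20970 to 27020 CPM of the 4 MII libraries. Markers of cumulus and granulosa cells summed to 32.3 to 38.9 CPM in GV, 79.1 to 80.2 in IVM MII and 35.0 to 51.4 in IVO MII, with 5 of 12 tested and PTX3, AMHR2 and FOXL2 at 0 in every library. Those of theca, stroma and endothelium, 4 of 9 tested, summed to 326 to 384 CPM in GV, 150 to 159 in IVM MII and 83.1 to 86.7 in IVO MII, with CYP17A1 and LUM at 0. Most of that sum was the endothelial gene VWF, at 312, 103 and 43.9 CPM on average in the 3 groups, an order shared with CDK1 and CCNB2. The endothelial gene PECAM1 was instead lowest in GV, at 9.34, 19.4 and 15.6 CPM. A further one, CDH5, stood at 32.8, 31.3 and 24.8 CPM, and edgeR called it in no comparison. Blood markers summed to 4.15 to 13.4 CPM, with CD3E and HBB at 0.

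**Figure D1:**
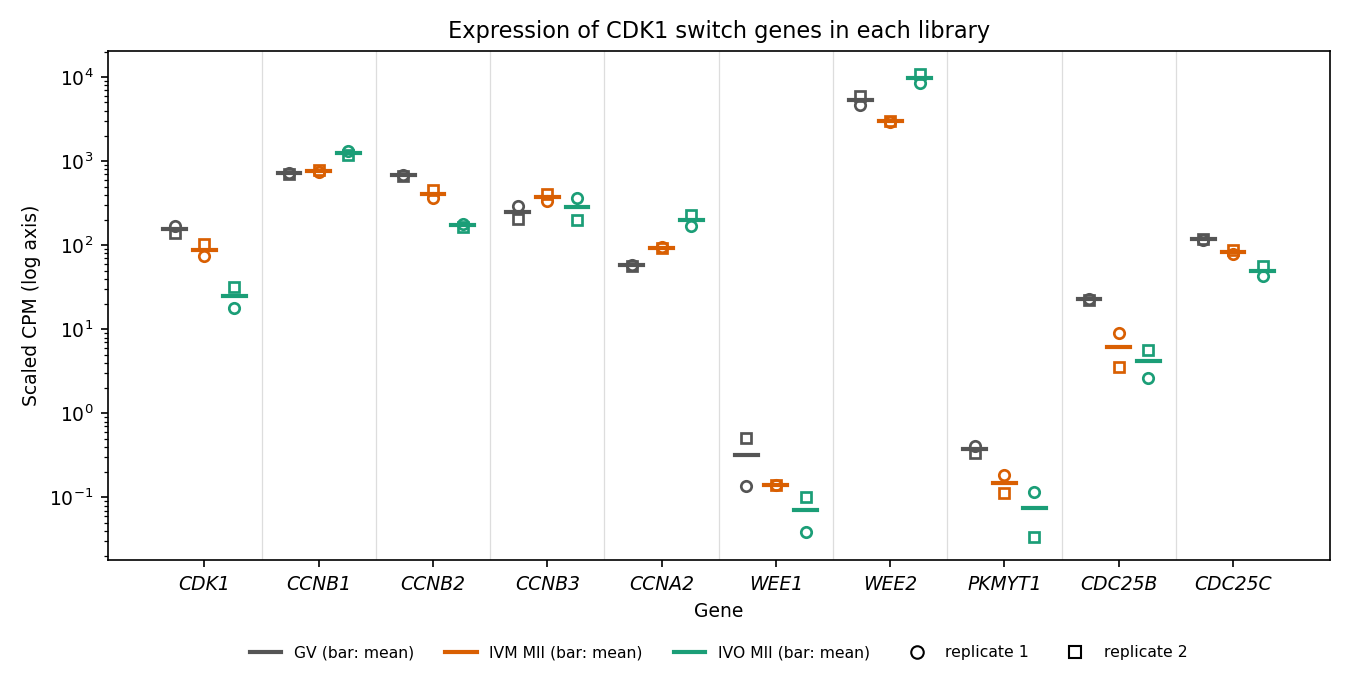
Level of each of the 10 genes in each of the 6 libraries, in CPM on a log axis, by group; points are libraries and bars are group means. WEE2 sits highest at 2950 CPM or more in every library, WEE1 and PKMYT1 sit below 1 CPM in every library, and CDK1 and CCNB2 step down from GV through IVM MII to IVO MII.

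CDK1 mRNA was most abundant in GV oocytes and least abundant in oocytes matured in the animal. The gene lies on chromosome 9 of the macFas5 genome build at 75269341 to 75286400, on the minus strand, with 10 exon blocks. Its level was 171 and 138 CPM in the GV libraries, 74.5 and 103 in the IVM MII libraries, with 18.2 and 31.8 in the IVO MII libraries. No group overlapped another, and the order was GV, then IVM MII, then IVO MII. CDK1 fell 6.19-fold from GV to IVO MII (log2 fold change -2.63 ± 0.30, adjusted p = 3e-05) and 1.74-fold from GV to IVM MII (-0.80 ± 0.28, adjusted p = 0.0337). It was 3.55-fold higher in IVM MII than in IVO MII (1.83 ± 0.29, adjusted p = 0.00116). The call against GV in IVM MII ended without GV replicate 1 (-0.64), IVM MII replicate 1 (-0.55) or IVM MII replicate 2 (-1.04).

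The 3 B-type cyclins, the partners that activate CDK1, went different ways. CCNB2 fell with CDK1, CCNB1 was higher in IVO MII, and CCNB3 passed the test in no comparison, by edgeR or DESeq2. CCNB2, on chromosome 7 at 36290539 to 36312506 (plus strand, 9 exon blocks), stood at 689.9 and 675 CPM in GV, 366 and 449 in IVM MII, with 178 and 167 in IVO MII. The 3 groups did not overlap, and GV was the highest. CCNB2 fell 3.95-fold from GV to IVO MII (-1.98 ± 0.23, adjusted p = 3.54e-05) and 1.67-fold from GV to IVM MII (-0.74 ± 0.22, adjusted p = 0.0168), and it was 2.36-fold higher in IVM MII than in IVO MII (1.24 ± 0.23, adjusted p = 0.00255). The call in IVM MII against GV ended without GV replicate 1 (-0.72), GV replicate 2 (-0.75) or IVM MII replicate 1 (-0.57).

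CCNB1, on chromosome 6 at 68986445 to 69000805 (plus strand, 6 exon blocks), encodes the B-type cyclin most often tied to M-phase entry. It stood at 729 and 712 CPM in GV, 746 and 792 in IVM MII, with 1317 and 1185 in IVO MII. Both IVO MII libraries lay above all others, while GV and IVM MII lay close together without overlapping. CCNB1 rose 1.74-fold from GV to IVO MII (0.80 ± 0.23, adjusted p = 0.0115) and was 1.63-fold lower in IVM MII than in IVO MII (-0.70 ± 0.23, adjusted p = 0.0459). Between IVM MII and GV the difference was 0.09 ± 0.23 (adjusted p = 0.754). The call of IVO MII against GV ended without GV replicate 1 (0.82), GV replicate 2 (0.78) or IVO MII replicate 1 (0.73). The call of IVM MII against IVO MII ended under 11 of the 14 other settings tried, each left-out library among them (-0.77 to -0.62), and its direction held throughout.

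CCNB3, a B-type cyclin known for its role in female meiosis, lies on chromosome X at 48552835 to 48643408 (plus strand, 14 exon blocks). It stood at 293 and 204 CPM in GV, 336 and 409 in IVM MII, with 367 and 198 in IVO MII. The IVO MII libraries spanned the whole range of the GV libraries and part of that of IVM MII. The differences were 0.59 ± 0.30 between IVM MII and GV (adjusted p = 0.128), 0.19 ± 0.30 between IVO MII and GV (adjusted p = 0.62) and 0.40 ± 0.30 between IVM MII and IVO MII (adjusted p = 0.361). Scaling to library totals called CCNB3 higher in IVM MII than in GV (0.87). The sign of the IVO MII difference from GV turned without GV replicate 2 (-0.05) or IVO MII replicate 1 (-0.31).

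CCNA2, cyclin A2, pairs with CDK2 in S phase and with CDK1 in M phase. It lies on chromosome 5 at 120791932 to 120799278 (minus strand, 8 exon blocks) and shares 150 exon bases with EXOSC9 on the other strand. Since the counting used no strand, reads in those bases cannot be assigned to one of the 2 genes. Its level was 57.9 and 57.4 CPM in GV, 94.2 and 93.3 in IVM MII, with 171 and 228 in IVO MII. The 3 groups did not overlap and stood in the reverse order of CDK1 and CCNB2. CCNA2 rose 3.46-fold from GV to IVO MII (1.79 ± 0.23, adjusted p = 5.64e-05) and 1.63-fold from GV to IVM MII (0.70 ± 0.22, adjusted p = 0.0201), and was 2.13-fold lower in IVM MII than in IVO MII (-1.09 ± 0.22, adjusted p = 0.00464). The call in IVM MII against GV ended without either GV library (0.71 and 0.70 without replicates 1 and 2) or either IVM MII library (0.73 and 0.72).

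The makeup of the B-type cyclin mRNA differed more between the groups than its sum. Per kilobase of exon, the 3 transcripts together came to 900.0 ± 26.02 CPM in GV, 773 ± 66.8 in IVM MII and 875 ± 81.1 in IVO MII, with overlap between GV and IVO MII and between IVM MII and IVO MII. Of that sum, CCNB1 held 44.8% and 45.6% in GV, 58.1% and 54.5% in IVM MII, with 79.8% and 81.9% in IVO MII. CCNB2 held 48.9% and 49.9% in GV, 32.8% and 35.7% in IVM MII, with 12.5% and 13.3% in IVO MII. The shares of both genes were thus separate in the 3 groups, whereas that of CCNB3 was 4.55% to 9.81% and overlapped between GV and IVO MII. These shares are descriptions, with no test, and a trend with gene length was not removed from them.

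**Figure D2:**
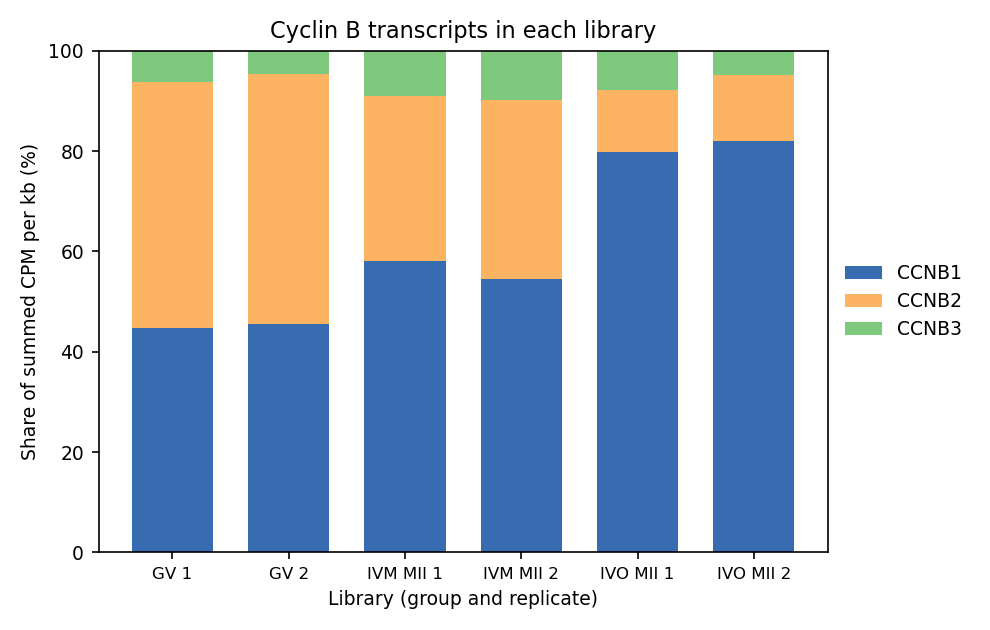
Share of CCNB1, CCNB2 and CCNB3 in their summed mRNA level per kilobase (percent), for each of the 6 libraries. CCNB1 goes from 45.2% on average in GV to 56.3% in IVM MII and 80.9% in IVO MII, and CCNB2 from 49.4% to 34.3% and 12.9%.

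WEE2, the oocyte form of the WEE1 kinase, was the most abundant of the 10 mRNAs per kilobase in every library, and its 2 MII groups lay on opposite sides of GV. It lies on chromosome 3 at 174766157 to 174789129 (plus strand, 12 exon blocks). WEE2 stood at 4648 and 5913 CPM in GV, 2950 and 3026 in IVM MII, with 8634 and 10940 in IVO MII. The groups did not overlap: both IVM MII libraries were the lowest and both IVO MII libraries the highest. WEE2 fell 1.77-fold from GV to IVM MII (-0.82 ± 0.29, adjusted p = 0.0321) and rose 1.85-fold from GV to IVO MII (0.89 ± 0.29, adjusted p = 0.019). The direct comparison put it 3.28-fold lower in IVM MII than in IVO MII (-1.71 ± 0.29, adjusted p = 0.0017).

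That direct difference in WEE2 kept its call under all 14 other settings, but the differences of its MII groups from GV did not. The fall in IVM MII lost its call when any of 5 libraries was left out: GV replicate 1 (-0.98), GV replicate 2 (-0.63), IVM MII replicate 1 (-0.76), IVM MII replicate 2 (-0.83) and IVO MII replicate 2 (-0.80). The rise in IVO MII lost its call without GV replicate 1 (0.73) or 2 (1.08) or IVO MII replicate 2 (0.72).

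The other 2 inhibitory kinases were near the limit of detection. WEE1, on chromosome 14 at 58221833 to 58241600 (minus strand, 14 exon blocks), is the form of most dividing somatic cells, and it had 4 and 15 counts in GV, 6 and 5 in IVM MII, with 1 and 3 in IVO MII. PKMYT1, on chromosome 20 at 3243158 to 3252328 (minus strand, 9 exon blocks, 352 exon bases shared with PAQR4 on the other strand), had 12 and 10 counts in GV, 8 and 4 in IVM MII, with 3 and 1 in IVO MII. Both genes had too few counts to be tested. In a fit without the filter on low counts, edgeR called neither in any comparison, with adjusted p of 0.154 to 0.662 for WEE1 and 0.0951 to 0.622 for PKMYT1. At an unadjusted p under 0.05 there was 1 difference, PKMYT1 in IVO MII against GV. With 15 counts or fewer in each library, neither gene supports a statement on direction.

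Of the 2 activating phosphatases, CDC25B fell from GV to both MII groups and CDC25C from GV to IVO MII. CDC25B, on chromosome 10 at 58683046 to 58693427 (minus strand, 15 exon blocks), is the form required for meiotic resumption in the mouse. It stood at 22.8 and 22.6 CPM in GV, 8.94 and 3.55 in IVM MII, with 2.67 and 5.64 in IVO MII. Both GV libraries lay above all MII libraries, and the MII groups overlapped. CDC25B fell 3.62-fold from GV to IVM MII (-1.86 ± 0.42, adjusted p = 0.00375) and 5.44-fold from GV to IVO MII (-2.44 ± 0.44, adjusted p = 0.000583). Single libraries set the size of both falls: the log2 fold change in IVM MII was -2.64 without replicate 1 and -1.33 without replicate 2, and in IVO MII it was -1.99 without replicate 1 and -3.08 without replicate 2. Between IVM MII and IVO MII the difference was 0.59 ± 0.43 (adjusted p = 0.341), and it turned negative without IVM MII replicate 1 (-0.20).

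CDC25C, on chromosome 6 at 137372397 to 137430564 (minus strand, 15 exon blocks), acts on CDK1 at entry into M phase. It stood at 117 and 119 CPM in GV, 77.8 and 88.1 in IVM MII, with 42.9 and 56.6 in IVO MII. The 3 groups were separate, in the same order as CDK1 and CCNB2. CDC25C fell 2.37-fold from GV to IVO MII (-1.25 ± 0.22, adjusted p = 0.00057) and was 1.67-fold higher in IVM MII than in IVO MII (0.74 ± 0.22, adjusted p = 0.0309). The difference between IVM MII and GV, -0.51 ± 0.22, missed the threshold (adjusted p = 0.0727). Of the 14 other settings, 3 called it lower and 11 did not. The 3 were DESeq2 (-0.56), a strict filter of 10 CPM in 2 libraries (-0.79) and a fit to the 4 compared libraries alone (-0.60). The call against IVO MII ended without IVM MII replicate 1 (0.85), IVM MII replicate 2 (0.65) or IVO MII replicate 1 (0.55).

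**Figure D3:**
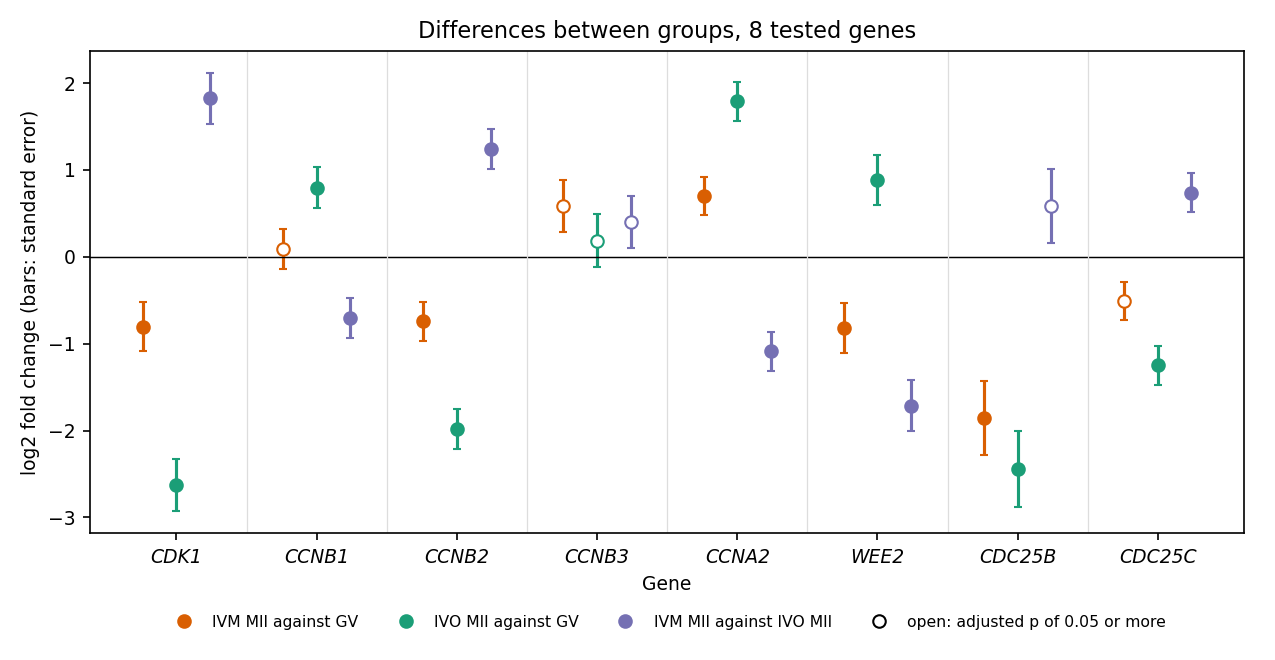
Log2 fold change of the 8 tested genes in the 3 comparisons, with bars of 1 standard error; filled points passed an adjusted p of 0.05. CDK1 and CCNB2 lie below 0 against GV in both MII groups and CCNA2 above 0, while WEE2 lies at -0.82 in IVM MII and 0.89 in IVO MII.

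Levels of different genes were compared per kilobase of exon, without removing a trend with gene length. In GV oocytes the order was WEE2 (1637 ± 277 CPM per kilobase), CCNB2 (444 ± 6.80), CCNB1 (407 ± 6.84), CDK1 (77.7 ± 11.6), CCNB3 (48.9 ± 12.4), CDC25C (44.8 ± 0.57), CCNA2 (21.4 ± 0.12) and CDC25B (5.96 ± 0.03), with PKMYT1 and WEE1 below 1. Only CCNB3 and CDC25C overlapped among neighbours in that order. In IVM MII oocytes WEE2 (926 ± 16.6) was followed by CCNB1 (434 ± 18.4), CCNB2 (265 ± 38.4), CCNB3 (73.3 ± 10.1), CDK1 (44.6 ± 10.1), CCNA2 (34.7 ± 0.24), CDC25C (31.5 ± 2.77) and CDC25B (1.64 ± 1.00), with no overlap between neighbours. In IVO MII oocytes the order was WEE2 (3034 ± 506), CCNB1 (706 ± 52.4), CCNB2 (113 ± 5.14), CCNA2 (73.8 ± 15.1), CCNB3 (55.6 ± 23.5), CDC25C (18.9 ± 3.67), CDK1 (12.6 ± 4.84) and CDC25B (1.09 ± 0.55), and CCNA2 overlapped CCNB3, as did PKMYT1 and WEE1 at the foot of the order. CDK1 thus lay above CCNB3, CDC25C and CCNA2 in GV and below all 3 in IVO MII. WEE2 was the 54th highest of all 28164 genes in GV, the 56th in IVM MII and the 21st in IVO MII.

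Ratios within a library do not depend on how libraries are scaled, but a trend with gene length can move them. In IVM MII against GV, removing that trend took the log2 fold change of CDK1 from -0.80 to -0.60. That of CCNB1 went from 0.09 to 0.35, and that of WEE2 from -0.82 to -0.86. For IVO MII against GV, the 14 other settings, removal of the trend among them, ranged from -3.08 to -2.27 for CDK1. They ranged from 0.46 to 1.17 for CCNB1, from -2.31 to -1.53 for CCNB2 and from 0.56 to 1.08 for WEE2. The trend was not removed from the ratios. WEE2 mRNA per kilobase was 16.8 and 26.4 times that of CDK1 in GV, 24.4 and 18.2 times in IVM MII, and 293 and 212 times in IVO MII. GV and IVM MII overlapped, and both IVO MII libraries stood apart, with a mean ratio 11.7 times that of GV and 11.9 times that of IVM MII. The ratio of WEE2 to CDC25C was 32.5 and 40.6 in GV, 31.0 and 28.1 in IVM MII, with 165 and 158 in IVO MII, so that the IVO MII libraries were again far above the rest and IVM MII lay just below GV. The ratio of WEE2 to CDC25B was 241 and 309 in GV, 389.6 and 1005 in IVM MII, with 3821 and 2290 in IVO MII. For the cyclins the ratio of CCNB1 to CDK1 was 4.79 and 5.78 in GV, 11.3 and 8.66 in IVM MII, with 81.5 and 41.9 in IVO MII, and here the 3 groups were separate. CCNB1 to CCNB2 was also separate, at 0.92 and 0.91 in GV, 1.77 and 1.53 in IVM MII, with 6.40 and 6.15 in IVO MII. Of the 9 ratios computed, that of CCNB2 to CDK1 had the smallest spread of group means, at most 1.69 times, with 5.23 and 6.33 in GV, 6.37 and 5.66 in IVM MII, with 12.7 and 6.82 in IVO MII. These ratios are descriptions with no test, and the ratio of 2 mRNAs says nothing of the ratio of their proteins.

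**Figure D4:**
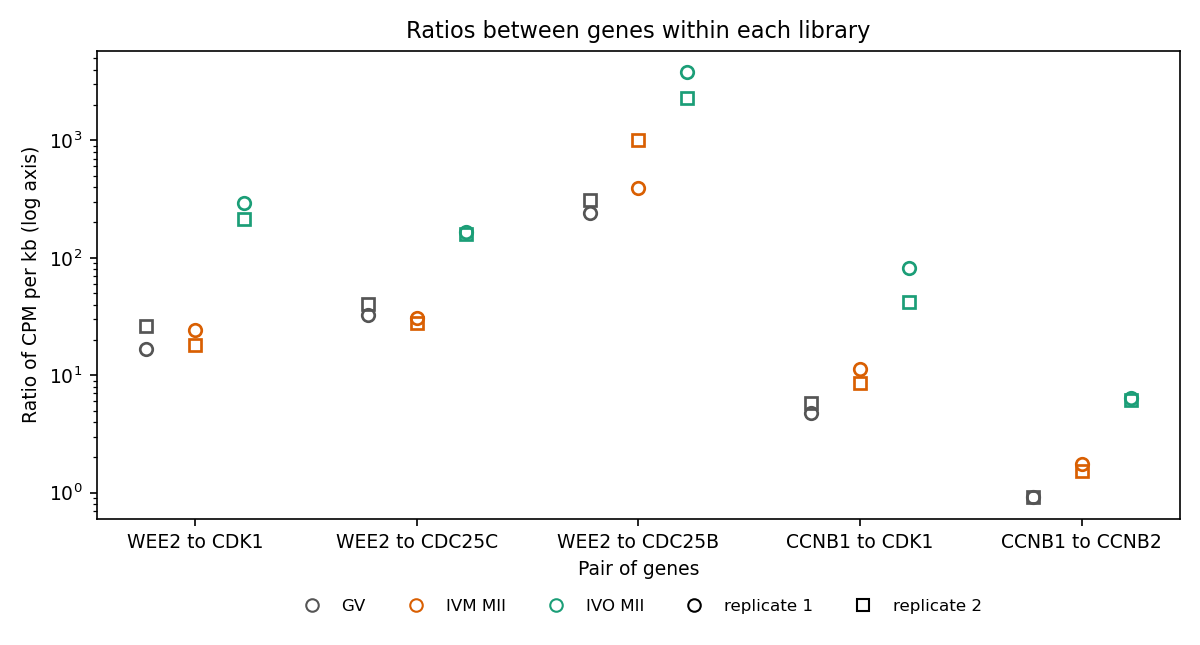
Ratios of mRNA levels per kilobase within each library (log axis), with 1 point per library and groups side by side. The ratio of WEE2 to CDK1 lies at 16.8 to 26.4 in the 4 GV and IVM MII libraries and at 212 to 293 in the 2 IVO MII libraries.

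The comparison of IVO MII with GV follows maturation in the animal. Of the 8 tested genes, 3 rose (CCNA2, CCNB1 and WEE2) and 4 fell (CDK1, CCNB2, CDC25B and CDC25C), that is 37.5% and 50.0%. Over all 15815 tested genes 28.1% were called higher and 30.5% lower, so the count of risers lies near the background. The median log2 fold change was -0.53 over the 8 genes and -0.07 over all tested genes. WEE1 and PKMYT1 are in neither count. Beside these differences, 8 of the 11 oocyte markers fell, and of the 4 tested markers of theca, stroma and endothelium 1 rose (PECAM1) and 1 fell (VWF). Of the 5 tested cumulus and granulosa markers 1 rose (HAS2) and 1 fell (TNFAIP6), and the part of these markers in the result was not tested. The number of risers dropped from 3 to 1, CCNA2, with a strict filter of 10 CPM in 2 libraries or without GV replicate 1 or GV replicate 2, and the number that fell stayed at 4 under all 14 other settings.

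Maturation in culture is followed by the comparison of IVM MII with GV. Here 1 of the 8 tested genes rose (CCNA2) and 4 fell (CDC25B, CCNB2, WEE2 and CDK1), 12.5% and 50.0%, against 25.6% higher and 24.7% lower over all tested genes. The median was -0.63 over the 8 genes and 0.06 over all. Of the 11 oocyte markers 1 rose and 6 fell, and of the 4 tested markers of theca, stroma and endothelium 1 rose (PECAM1) and 1 fell (VWF). Of the 5 tested cumulus and granulosa markers 2 rose, GREM1 from 3.97 to 29.1 CPM and HAS2 from 4.99 to 18.7 CPM, and CYP19A1 fell, and the part of these markers was not tested. Scaling to library totals moved the median of all genes by 0.29, the calls over all genes from 4053 higher and 3908 lower to 5272 and 3004, and the calls among the 8 genes to 2 higher and 1 lower. The riser, CCNA2, was lost when any GV or IVM MII library was left out, and also under the strict filter (0.43). The number that fell was also 1 without GV replicate 1 or IVM MII replicate 1, and 2 without GV replicate 2 or IVM MII replicate 2. Scaling to library totals changes only the factors of the libraries, so it shifts all genes by nearly the same amount. Under it the log2 fold change was -0.53 for CDK1, -0.46 for CCNB2 and -0.52 for WEE2, all of which lost their call. Removing the trend with gene length also ended the calls of CDK1 (-0.60) and CCNB2 (-0.43). This comparison shares its GV libraries with the one before, so the values of the 2 are not independent.

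The question behind IVM MII against IVO MII is what sets maturation in vitro apart from maturation in vivo. Here and against GV, each group has its own 2 libraries. Stage and route thus cannot be told apart from differences between the oocytes or animals sampled. Of the 8 tested genes, 3 were higher in IVM MII (CDK1, CCNB2 and CDC25C) and 3 lower (WEE2, CCNA2 and CCNB1), 37.5% each, against 14.3% higher and 10.3% lower over all tested genes. The median log2 fold change was 0.49 over the 8 genes and 0.02 over all. Of the 3 higher genes, CDC25C lost its call under 3 of the 14 other settings, and CDK1 and CCNB2 kept theirs under all 14. Without any 1 of the 6 libraries CCNB1 lost its call and 2 genes remained lower, WEE2 and CCNA2. Among the cumulus and granulosa markers, 2 of the 5 tested stood higher in IVM MII, GREM1 at 29.1 against 4.01 CPM and TNFAIP6 at 27.9 against 13.7 CPM, while HAS2, at 18.7 against 22.2 CPM, was not called. The endothelial marker VWF and 4 of the 11 oocyte markers were also higher in IVM MII, and the part of these markers was not tested. Scaling to library totals moved the calls over all genes from 2260 higher and 1635 lower to 2803 and 894, with a shift of the median of 0.22.

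Other genes of the pathway were described by list, and each count is to be read against the shares of all tested genes called: 25.6% higher and 24.7% lower in IVM MII against GV, 28.1% and 30.5% in IVO MII against GV, and 14.3% and 10.3% in IVM MII against IVO MII. Among 10 other CDK subunits and cyclins, 9 were tested: 2 rose and 2 fell from GV to IVM MII (22.2% each, near the background), 1 rose and 4 fell from GV to IVO MII, and 2 were higher in IVM MII than in IVO MII. CCNH, the cyclin of the kinase that activates CDK1, stood at 976 and 1031 CPM in GV, 299 and 380 in IVM MII, with 68.5 and 87.7 in IVO MII. All 3 groups were separate. The log2 fold change of CCNH was -1.56 ± 0.25 in IVM MII against GV, -3.68 ± 0.27 in IVO MII against GV and 2.12 ± 0.25 in IVM MII against IVO MII. CKS2, a small subunit that binds CDK1, stood at 1045 and 962 CPM in GV, 594 and 1032 in IVM MII, with 281 and 298 in IVO MII. It fell from GV to IVO MII (-1.79 ± 0.29), and by -0.98 after removal of the trend with gene length. CCNE1, a cyclin that partners CDK2, rose in both MII groups: its level was 39.3 ± 2.71 CPM in GV, 85.3 ± 15.4 in IVM MII and 121 ± 4.36 in IVO MII. Of the CDK inhibitor proteins CDKN1A, CDKN1B and CDKN1C, only the last was tested, and edgeR called it in no comparison, with 0 at an unadjusted p under 0.05 and 0 by DESeq2.

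CDC25A was listed with the kinases PLK1, AURKA, CHEK1 and CHEK2 and the cofactor BORA, 6 genes in all. Of these 3 rose (50.0%) and 1 fell from GV to IVM MII, and 4 rose (66.7%) and 1 fell from GV to IVO MII, against 25.6% and 28.1% of all tested genes higher. Between IVM MII and IVO MII edgeR called 0, with 1 at an unadjusted p under 0.05 and 1 called by DESeq2. CDC25A, the third CDC25 phosphatase, moved against CDC25B and CDC25C: it stood at 18.7 and 13.5 CPM in GV, 41.4 and 38.8 in IVM MII, with 83.6 and 48.6 in IVO MII. It rose by 1.32 ± 0.28 from GV to IVM MII and by 2.04 ± 0.29 from GV to IVO MII on the log2 scale, with adjusted p of 0.00261 and 0.00012. PLK1, the polo-like kinase that activates CDC25C and marks WEE1 for destruction, fell from 67.1 ± 6.64 CPM in GV to 30.9 ± 3.55 in IVO MII (-1.11 ± 0.28, adjusted p = 0.00536). Its fall in IVM MII (-0.88 ± 0.28, adjusted p = 0.0218) lost its call without GV replicate 2 (-0.77) or IVM MII replicate 2 (-0.49), on library totals (-0.55) and with the length trend removed (-0.71).

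PP2A-B55 is the phosphatase that removes phosphates from CDK1 substrates, and the Greatwall kinase inhibits it through ENSA and ARPP19. Of the 9 tested genes of this group 3 rose and 2 fell in IVM MII against GV (33.3% and 22.2%) and 3 rose and 3 fell in IVO MII against GV (33.3% each), shares near those of all genes. In IVM MII against IVO MII 1 was higher. MASTL, Greatwall itself, rose from 65.4 ± 7.83 CPM in GV to 127 ± 13.2 in IVO MII (0.95 ± 0.21) and to 113 ± 0.98 in IVM MII (0.79 ± 0.21), where the call ended without GV replicate 2 (0.68). The 20 genes of cyclin destruction by the anaphase-promoting complex (APC/C) were all tested: 9 rose and 5 fell in IVM MII against GV (45.0% and 25.0%, beside 25.6% and 24.7% of all genes), 9 rose and 7 fell in IVO MII against GV (45.0% and 35.0%, beside 28.1% and 30.5%), and 1 was higher in IVM MII than in IVO MII. Among the 9 risers in each MII group was FBXO43 (EMI2), which blocks the APC/C at metaphase of the second division. The list thus holds more than genes that destroy cyclins. FBXO43 stood at 10.3 and 8.32 CPM in GV, 42.0 and 42.5 in IVM MII, with 45.5 and 44.8 in IVO MII. The log2 fold changes of FBXO43 were 2.18 ± 0.23 and 2.27 ± 0.23.

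Of 5 parts of the SCF ubiquitin ligase that acts on WEE1 and CDC25, 1 rose and 1 fell in IVM MII against GV (20.0% each, beside 25.6% and 24.7% of all genes), and 2 rose and 1 fell in IVO MII against GV (40.0% and 20.0%, beside 28.1% and 30.5%). In IVM MII against IVO MII 1 was higher and 2 lower, among them CDCA3, a trigger of WEE1 destruction, at 165 and 174 CPM in IVM MII against 341 and 397 in IVO MII (-1.12 ± 0.22, adjusted p = 0.00343). Of 5 phosphatases that oppose CDK1, 2 rose in IVM MII against GV (40.0%, beside 25.6% of all genes) and 3 rose in IVO MII against GV (60.0%, beside 28.1%). In IVM MII against IVO MII 1 of these was higher and 1 lower.

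**Figure D5:**
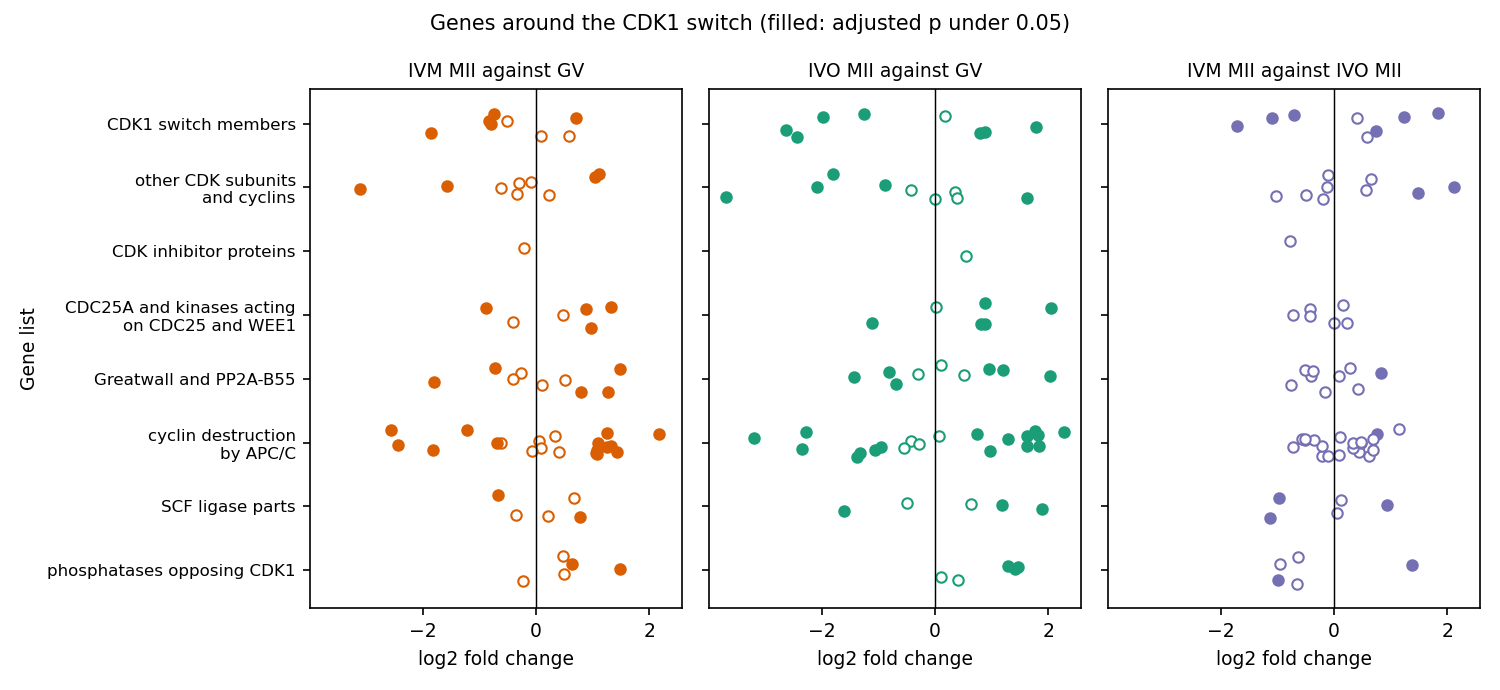
Log2 fold change (horizontal axis) of each tested gene in each pathway list (vertical axis), with 1 panel per comparison; each point is a gene, and filled points passed an adjusted p of 0.05. Against GV, the APC/C list has 9 filled points above 0 and 5 below in IVM MII, and 9 above and 7 below in IVO MII. It has 1 filled point of 20 between the MII groups. Over all tested genes, 25.6% were called higher and 24.7% lower in IVM MII against GV, and 28.1% and 30.5% in IVO MII against GV.

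Genes most like CDK1, CCNB1 and WEE2 were sought among 6013 candidates with a symbol and at least 10 CPM on average. Genes with only a LOC identifier, and the members, were not candidates. The most like were those with the smallest root mean square difference in centred log2 CPM over the 6 libraries. For CDK1 these were NDUFAF7 (0.10), METTL5 (0.22) and BANF1 (0.23). NDUFAF7 stood at 21.5, 11.4 and 3.40 CPM on average in GV, IVM MII and IVO MII. For CCNB1 they were CCDC91 (0.06), SPECC1 (0.07) and FAM63B (0.07), and CCDC91 stood at 36.6, 38.8 and 60.5 CPM. For WEE2 they were ZCCHC9 (0.14), GCA (0.19) and XRCC2 (0.19), and ZCCHC9 stood at 95.8, 52.8 and 178 CPM. Within the 8 tested genes the nearest pair was CCNB2 and CDC25C (0.33), followed by CDK1 and CCNB2 (0.42) and by CCNB1 and CCNA2 (0.44). The farthest pair was CDK1 and CCNA2 (1.86). These differences are descriptions over 6 libraries in 3 groups.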

How the data were processed

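The sources are the deposited gene counts of 6 libraries, 3 groups of 2. Per the file headers, the authors made these raw counts with featureCounts 2.0.1, as fragments over exons by gene on the RefSeq annotation of macFas5, with no strand option; exon lengths come from the same file. Per the submitters' processing notes, fastp, FastQC, Bowtie2 and SAMtools were also used; a splice-aware aligner is not named in the sources used here, and reads that span exons may have been lost. No molecular identifiers are named in the sources used here.

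Genes were filtered with filterByExpr (15815 kept, 12349 not tested). The quasi-likelihood test of edgeR 4.0.16 (R 4.3.3) was fitted, with TMM factors of 0.903 to 1.22, to all 6 libraries, with robust dispersions, group terms, 3 residual degrees of freedom and a biological coefficient of variation of 0.232. Tests were two-sided with Benjamini-Hochberg adjustment over all tested genes at 0.05 and no fold threshold. A count of 3 in a library equals 0.0695 to 0.116 CPM. For 721 genes named only by a LOC identifier, symbols came from a RefSeq table of a later assembly.

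All 10 members are named. Other genes were named from lists, up to 3 per direction and comparison by adjusted p, with counts and medians only and no list test. Marker genes could also be named. The members and lists were chosen with earlier results of these data known. The 14 alternatives were DESeq2 1.42.0; library totals or RLE factors in place of TMM; genes kept without a filter, or only at 10 CPM or more in 2 libraries (the strict filter); a fit to the 4 libraries of a comparison; a block term for the replicate number; the trend with gene length removed; and each of the 6 libraries left out, which leaves a lone library that is assumed to vary like the others. The fit was also run on counts simulated from its own means and dispersions, with a small part of the genes changed in IVM MII only. That run cannot check the scaling where many genes differ, as many were called here. Figures were drawn with matplotlib 3.10.9.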

Additional observations from a re-analysis of the deposited data

How the results depend on the processing

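Of 18 calls among the 8 tested members, 10 held under all 14 alternatives and 8 ended under at least 1. Of 336 alternative values of the members, 283 kept direction and side of the threshold, 43 lost the call, 4 gained one and 6 changed sign, and the cause was not tested. Those that changed sign had no call: CCNB1 in IVM MII against GV under the strict filter (-0.18), CCNB3 in IVO MII against GV under the strict filter (-0.15), with the length trend removed (-0.15), without GV replicate 2 (-0.05) and without IVO MII replicate 1 (-0.31, in a range up to 0.57), and CDC25B in IVM MII against IVO MII without IVM MII replicate 1 (-0.20, in a range up to 1.23). There were 2 libraries a group and 3 residual degrees of freedom, and the low counts of WEE1 and PKMYT1 kept both from the test.

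The number of members higher in IVM MII than GV (1) was 2 on library totals, 0 under the strict filter and 0 to 1 with a library left out; the number lower (4) was 1 on library totals, 2 with the length trend removed and 1 to 4 with a library left out. The number higher in IVO MII than GV (3) was 1 under the strict filter and 1 to 3 with a library left out. The strict filter tests fewer genes and sets the TMM factors anew from them. In IVM MII against GV it moved the log2 fold change of every tested member down. CCNA2 went from 0.70 to 0.43, CCNB1 from 0.09 to -0.18, CDK1 from -0.80 to -1.08 and WEE2 from -0.82 to -1.10. Library totals moved them up, CCNA2 to 1.00. Over all genes, the strict filter gave 2268 higher and 2352 lower in IVM MII against GV, and 2727 and 2859 in IVO MII against GV. In IVM MII against IVO MII it gave 1051 lower, where library totals gave 894. With a library left out, counts ran from 2580 to 4452 higher in IVM MII than GV, and from 1327 to 2094 higher and 753 to 1496 lower in IVM MII than IVO MII.

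With the replicate number as a block (replicate block), the counts of calls over all genes came to 3982 up and 3748 down for IVM MII against GV, 4345 and 4670 in IVO MII against GV, and 2180 and 1545 in IVM MII against IVO MII. Among the members it ended 1 call, that of CCNB1 in IVM MII against IVO MII (-0.70, adjusted p = 0.0532). No source used here says whether same-numbered libraries were paired. Their deviations correlated at -0.12 between GV and IVM MII, 0.13 between GV and IVO MII, and -0.09 between IVM MII and IVO MII. With 1 difference per group, these correlations cannot tell whether such libraries were paired.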
